A study of Mus musculus with 15 samples.

Results

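Disp1, Brox, Aida, Mia3, Taf1a and Hhipl2 lie next to each other on mouse chromosome 1, and the question here was whether neighbours on a chromosome changed together as the liver developed. The genes were taken by RefSeq accession: each of the 6 had 1 probe among the 59709 noncontrol probes of the array, of which 123 carried such an accession, and 112 gene symbols were matched in all. The 15 arrays measured liver RNA of C57BL/6 mice, an inbred laboratory strain, with 3 arrays at each of 5 stages. The fetal stages were E12.5, E14.5 and E17.5 (embryonic days), and the postnatal ones were neonatal and adult (8 weeks). No animal was treated and all groups share the strain and the tissue. The labels do not say whether the samples of a stage were separate animals or pools, so the p-values rest on a spread between samples that may be only technical.

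Disp1 and Hhipl2 are tied to Hedgehog signalling, and the other genes act in separate processes. Disp1 (Dispatched) is a membrane protein with which a cell releases cholesterol-bearing Hedgehog ligands, and Hhipl2 is named for its likeness to the Hedgehog-interacting protein. Mia3, also called TANGO1, loads bulky cargo such as collagens into carriers at exit sites of the endoplasmic reticulum, Brox is a BRO1-domain protein that binds the ESCRT membrane-remodelling machinery, Taf1a is a subunit of the SL1 complex that brings RNA polymerase I to ribosomal DNA, and Aida binds axin and, in zebrafish, opposes axin-driven JNK signalling. Fetal liver is also a site of blood formation, which adult liver is not, and in bulk tissue fewer cells of a type and less RNA per cell cannot be told apart.

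In the RefSeq gene table the coding genes run in the order Disp1, Fam177b, Brox, Aida, Mia3, Taf1a, Hhipl2, and of these 7 all but Fam177b were matched to a probe. Disp1, Brox and Mia3 are on the minus strand, and Aida, Taf1a and Hhipl2 on the plus strand. Brox and Aida are divergent neighbours. Of the 2 listed Brox starts, the one with the lower coordinate is used here, and 51 bases separate it from the Aida start. The promoter windows of these starts (250 bases before to 50 after the start) share 151 bases. The other Brox start has a higher coordinate, and its distance to the Aida start was not measured. The 51 bases are shown because these divergent starts lie close together (RefSeq, GRCm38.p6, chr1:183297009-183297059, plus strand). The capitals mark the ETS letters CCGGAAGT and the E-box letters CACGTG.
Brox-Aida: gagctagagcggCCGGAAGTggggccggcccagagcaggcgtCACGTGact

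The 250 bases before the most upstream listed starts of Disp1 (chr1:183221530-183221779, minus strand) and Taf1a (chr1:183388635-183388884, plus strand) are shown (RefSeq, GRCm38.p6). These genes were chosen because their ratio changed most between fetal and postnatal liver. The capitals mark CCAAT and the ETS letters, the last on the reverse strand.
Disp1: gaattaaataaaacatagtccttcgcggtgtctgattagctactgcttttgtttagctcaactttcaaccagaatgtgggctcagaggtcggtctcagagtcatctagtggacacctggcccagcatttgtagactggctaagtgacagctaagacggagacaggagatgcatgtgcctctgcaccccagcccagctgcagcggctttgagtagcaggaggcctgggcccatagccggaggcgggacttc
Taf1a: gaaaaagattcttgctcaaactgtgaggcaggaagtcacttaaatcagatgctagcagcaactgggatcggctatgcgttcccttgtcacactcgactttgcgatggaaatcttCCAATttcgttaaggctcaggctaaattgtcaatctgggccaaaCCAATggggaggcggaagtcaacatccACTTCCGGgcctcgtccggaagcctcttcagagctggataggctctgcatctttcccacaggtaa

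Letters were searched on either strand of 1 full 300-base window per gene, and overlaps between motifs were allowed. Disp1, Brox, Taf1a and Hhipl2 each have 2 listed windows, and the other window of each was not searched. The window searched was that of the most upstream start, except for Brox, where it was that of the start named above. CCGGAAGT was in the windows of Disp1 (spanning its start site), Brox, Aida and Taf1a, with Brox and Aida holding the same match, against 3.89% of 32851 windows in the table. Of the 6 windows searched, CACGTG was in those of Brox and Aida only (7.15% of all windows). CCAAT was in those of Mia3 and Taf1a (37.4%), and GGGCGG in those of Brox, Aida, Mia3 and Hhipl2 (35.7%). TATAAA, found in 13.6% of all windows, and the GLI letters GACCACCCA, found in 0.253%, were in none of the 6 windows searched. GC content was lowest in the Taf1a window (52.7%) and highest in the Mia3 window (72%), and the number of CpG ran from 5 in the Hhipl2 window to 35 in the Mia3 window.

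Levels are log2 values of the background-subtracted probe signal, relative to the 75th percentile of the same array. They are compared between stages for 1 probe, never between probes. Disp1, Brox, Aida and Taf1a were well above background on all 15 arrays, Mia3 on 14 (not on E17.5 replicate 3), and Hhipl2 on 5, the 3 adult arrays and E12.5 replicates 2 and 3. None was saturated. All 6 passed the filter for testing (at least 1 stage with all its 3 arrays well above background), Hhipl2 only through the adult arrays. The share of spots well above background was 50.9% to 62.9% on 14 arrays. E17.5 replicate 1 had 80.9%, and its negative controls were also bright (95th percentile 70.4, against 14.4 to 28.2 elsewhere). By the scan date in the file headers the arrays were split into 2 groups, those with the date of the first array and the rest. They are called the first and second slide here, though whether each was 1 physical slide was not checked. The first held all arrays of E12.5 and of E14.5 with E17.5 replicates 1 and 2, and the second held E17.5 replicate 3 and the neonatal and adult arrays. Slide and age before or after birth thus nearly coincide, and fits that block on slide or use a single slide are given with the results they touch. Only E17.5 had arrays on both slides, so every slide block rests on E17.5 replicate 3 against replicates 1 and 2 of that stage. Between stages that lie on different slides, such a fit therefore depends on single arrays. No hepatocyte marker was among the matched symbols, so the tissue label was not checked against them. Of 42 cell type markers listed only Tfrc, the transferrin receptor that maturing red cells carry, was measured. Its level averaged 8.89, 8.86, 8.59, 8.16 and 5.50 from E12.5 to adult, with an adult minus E12.5 change of -3.39 ± 0.34 (SE, limma adjusted p = 1.78e-06), and its part in the results for the 6 genes was not tested.

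The 6 genes did not follow 1 course. Over the 5 stages, limma's F test called 4 of the 6 (Disp1, Aida, Taf1a and Hhipl2) at an adjusted p below 0.05, against 61.0% of the 37357 features tested. Hhipl2 counts among them only as a description here and at each later count, since it entered the test through the adult arrays on which it was high. Brox (adjusted p = 0.265) and Mia3 (adjusted p = 0.616) were not called. The stage with the highest mean was E12.5 for Disp1 and Aida and adult for Taf1a. The stage with the lowest mean was neonatal for Disp1, E17.5 for Aida and E14.5 for Taf1a. Except for Disp1 at E12.5, each of these stages overlapped with the stage next to it in level. The smallest gap was between adult and E17.5 for Aida (0.03). The dim stages of Hhipl2 have no order.

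**Figure D1:**
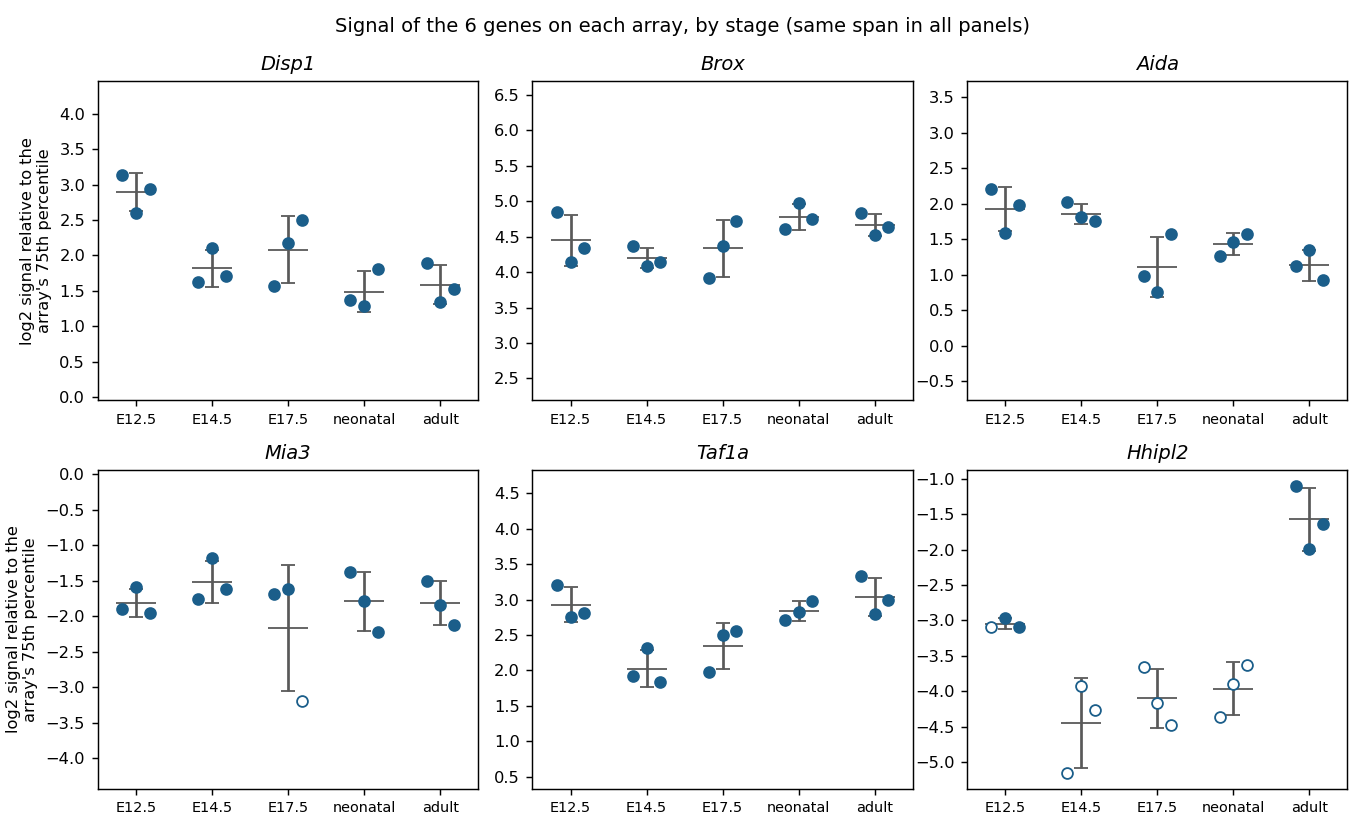
Log2 signal relative to the array's 75th percentile (vertical axes) for each gene at each stage (horizontal axes). Points are single arrays (open where the probe was not well above background), and the lines are the mean and SD of 3 arrays. Disp1 was highest at E12.5, and Taf1a had its lowest mean at E14.5. Brox and Mia3 showed no called change, and Hhipl2 was filled at adult and on 2 of the 3 E12.5 arrays.

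Disp1, through which Hedgehog-producing cells release their ligand, was at 3.14, 2.60 and 2.94 on the E12.5 arrays. It was at 1.63, 2.11 and 1.72 at E14.5 and at 1.57, 2.18 and 2.50 at E17.5. Neonatal arrays gave 1.37, 1.28 and 1.82, and adult arrays 1.89, 1.34 and 1.53. All 3 E12.5 arrays were above every other array, while the other 4 stages overlapped with their neighbours in the order of levels. Adult liver was 2.47-fold lower than E12.5 liver (log2 change -1.30 ± 0.28, SE, limma adjusted p = 0.00167), and neonatal liver 2.65-fold lower than E12.5 liver (log2 change -1.40 ± 0.28, adjusted p = 0.00162). With slide as a block the adult minus E12.5 change was -1.92 (adjusted p = 0.00706). The first step, E14.5 minus E12.5, lies within the first slide and measured -1.08 ± 0.28 (adjusted p = 0.0457). That call was lost in 13 of the 15 fits without 1 array (adjusted p up to 0.203), and held without E17.5 replicate 1 (0.0264) or E17.5 replicate 3 (0.0255). Fitted within the first slide alone the step had an adjusted p of 0.0756. The later steps were 0.27 ± 0.28 for E17.5 minus E14.5, -0.59 ± 0.28 for neonatal minus E17.5 and 0.10 ± 0.28 for adult minus neonatal, none of them called. Neonatal minus E17.5 passed with the percentile taken over probes detected on all arrays (-0.75, adjusted p = 0.0418) and in the authors' deposited table (-0.70, 0.0425), and was -1.01 with slide as a block (0.136).

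Hhipl2, the other gene of the 23 in the Hedgehog list that was measured, was dim. Its processed signal was 18.1, 37.1 and 33.8 at E12.5, then 7.25, 19.9 and 14.7 at E14.5 and 23.0, 11.1 and 8.94 at E17.5. Neonatal liver had 10.4, 15.1 and 19.5, and adult liver 75.4, 58.4 and 46.6. The adult arrays were the brightest 3 of the 15, and at E14.5, E17.5 and neonatal no array had the probe well above background, so that it has only a bound there. For such a stage the dim level was set per array to the probe's own signal or, where higher, the dimmest signal of any probe well above background. Adult liver was at least 3.53-fold higher than neonatal (measured level means -1.57 and -3.96, adjusted p = 0.000158), at least 2.87-fold higher than E17.5 (adult mean -1.57, E17.5 mean -4.10, adjusted p = 6.26e-05) and at least 3.51-fold higher than E14.5 (adult mean -1.57, E14.5 mean -4.45, adjusted p = 1.14e-05). Against E12.5, where replicate 1 was not well above background, the measured adult change was 1.47 ± 0.35 on the log2 scale (limma adjusted p = 0.00275). These p-values use the measured values, below background included, of a probe admitted through its bright stage. With no filter on features the adjusted p was 0.00050 against neonatal, 0.000205 against E17.5, 3.96e-05 against E14.5 and 0.00652 against E12.5. A normexp background correction, which compresses dim signals, gave 0.67 for adult minus E12.5 and 0.94 for adult minus neonatal, both still called. The measured means were -4.45 at E14.5, against -3.05 at E12.5 (adjusted p = 0.0330), and -3.96 in neonatal liver, against -3.05 at E12.5 (adjusted p = 0.0477). No fold is given for these, because only 2 of the 3 E12.5 arrays were above background. Single arrays ended both of these calls: without E12.5 replicate 2 or 3, E14.5 replicate 1 or 3, or adult replicate 3 the adjusted p at E14.5 lay between 0.0516 and 0.186. The E14.5 call was also lost with no filter (0.0763), with quantile normalization (0.0852), with normexp (0.0966) and within the first slide (0.0698). The neonatal call was lost without any 1 of the 3 E12.5 arrays, E14.5 replicate 3, E17.5 replicate 2, neonatal replicates 1 or 2, or adult replicate 3 (adjusted p up to 0.167). The neonatal minus E12.5 change was also lost with no filter (0.0880), and with slide as a block it was -0.35 (adjusted p = 0.757).

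Taf1a, the polymerase I factor, was at 3.21, 2.76 and 2.81 at E12.5. It was at 1.92, 2.32 and 1.83 at E14.5 and 1.97, 2.51 and 2.55 at E17.5. Neonatal arrays gave 2.71, 2.82 and 2.99, and adult arrays 3.33, 2.80 and 3.0. The E14.5 and E17.5 arrays were all below the arrays of the other 3 stages, which overlapped each other. The E14.5 minus E12.5 change of -0.90 ± 0.25 missed the threshold (limma adjusted p = 0.0561). It passed with quantile normalization (-0.87, adjusted p = 0.0226), with normexp (-0.84, 0.0105) and in the authors' deposited table (-0.85, 0.0175). It also passed with the percentile taken over probes detected on all arrays (-0.83, 0.0382) and without E17.5 replicate 1 (0.0388). A slide block and leaving out E17.5 replicate 3 are the same fit for this step, and the change passed there too (0.0366). Taf1a rose 2.02-fold in adult over E14.5 liver (1.02 ± 0.25, adjusted p = 0.00378) and 1.76-fold in neonatal over E14.5 liver (0.81 ± 0.25, adjusted p = 0.0176). With slide as a block these were 0.70 (adjusted p = 0.232) and 0.50 (adjusted p = 0.497). The neonatal call was also lost without E14.5 replicate 1 (0.0641), E14.5 replicate 3 (0.0715) or neonatal replicate 3 (0.0635). Adult over E17.5 was 0.70 ± 0.25 (adjusted p = 0.0427), a call that held without E12.5 replicate 1 or 2, E14.5 replicate 2, E17.5 replicate 3 or adult replicate 2 and was lost without any of the other 10 arrays (adjusted p up to 0.156). Within the second slide it was 0.49 (adjusted p = 0.269). Adult minus E12.5 was 0.12 ± 0.25 (adjusted p = 0.721). Tbp, the TATA-binding protein that also sits in the SL1 complex, was the only other measured gene of the 10 in the polymerase I list. Tbp averaged 2.79, 2.59, 2.41, 2.35 and 1.94 from E12.5 to adult, with an adult minus E12.5 change of -0.85 ± 0.24 (adjusted p = 0.0101).

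Aida, the axin-binding protein, was at 2.2, 1.58 and 1.98 at E12.5. It was at 2.02, 1.81 and 1.75 at E14.5 and 0.98, 0.76 and 1.57 at E17.5. Neonatal arrays gave 1.27, 1.46 and 1.58, and adult arrays 1.12, 1.35 and 0.92. Every E14.5 array was above every E17.5, neonatal and adult array, and E12.5 replicate 2 reached down to the neonatal values. Adult liver was 1.73-fold lower than E12.5 liver (log2 change -0.79 ± 0.26, limma adjusted p = 0.0195) and 1.66-fold lower than E14.5 liver (-0.73 ± 0.26, adjusted p = 0.0299). The adult minus E12.5 call was lost without E12.5 replicate 1 (adjusted p = 0.0632), E12.5 replicate 3 (0.0512) or adult replicate 3 (0.0800), and the adult minus E14.5 call without any 1 of the E14.5 arrays or adult replicates 1 or 3 (adjusted p up to 0.112). With slide as a block the adult minus E12.5 change was -1.50 (adjusted p = 0.00956) and the adult minus E14.5 change -1.44 (adjusted p = 0.0132). E17.5 was lower than E12.5 by 0.82 on the log2 scale (-0.82 ± 0.26, adjusted p = 0.0431; -1.06 and 0.0327 within the first slide). That call held only without E12.5 replicate 2, E17.5 replicate 3 or adult replicate 2 and was lost without any of the other 12 arrays (adjusted p up to 0.137). E17.5 minus E14.5 was -0.76 ± 0.26 (adjusted p = 0.0975). Without E17.5 replicate 3, the array on the second slide, it was -0.99 (adjusted p = 0.0228). This step also passed with quantile normalization (-0.77, 0.0478), with normexp (-0.78, 0.0213) and in the authors' deposited table (-0.78, 0.0392). Of its 25 alternatives, 20 left it not called.

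Brox, the divergent partner of Aida, was at 4.85, 4.15 and 4.34 at E12.5. It was at 4.36, 4.09 and 4.15 at E14.5 and 3.92, 4.36 and 4.73 at E17.5. Neonatal arrays gave 4.61, 4.97 and 4.75, and adult arrays 4.83, 4.53 and 4.63. Each stage overlapped with the next in the order of levels, and no pair of stages was called. The widest difference was neonatal minus E14.5 (0.57 ± 0.26, limma adjusted p = 0.0881), and adult minus E12.5 was 0.21 ± 0.26 (adjusted p = 0.515). Neonatal minus E14.5 passed with normexp (0.51, adjusted p = 0.0356), in a fit of only the 2 stages (0.0182), without E17.5 replicate 3 (0.0498) and without E12.5 replicate 1 and E17.5 replicate 1 together (0.0289). With slide as a block it was -0.01 (adjusted p = 0.990).

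Mia3, which serves collagen export, was at -1.90, -1.59 and -1.96 at E12.5. It was at -1.75, -1.18 and -1.61 at E14.5 and -1.69, -1.62 and -3.19 at E17.5. Neonatal arrays gave -1.37, -1.78 and -2.22, and adult arrays -1.50, -1.84 and -2.12. The lowest value, E17.5 replicate 3, was the array on which the probe was not well above background, and all stages overlapped. Adult minus E12.5 was -0.01 ± 0.38 (adjusted p = 0.992). With slide as a block it was 1.53 (adjusted p = 0.0246), a fit in which that dim array is the only E17.5 array on the second slide.

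Step by step, 2 of the 6 genes were called lower at E14.5 against E12.5 (Disp1 and Hhipl2). Of all features tested, 3.11% were called lower there and 4.93% in either direction. The Disp1 call was lost in 13 of the 15 fits without 1 array, and Hhipl2 was not well above background on any E14.5 array. None of the 6 genes was called at E17.5 against E14.5 (7.11% of all features), where 1 gene, Aida, had an unadjusted limma p below 0.05. None was called at neonatal against E17.5 (18.1%), where no gene had an unadjusted p below 0.05. Hhipl2 alone was called at adult against neonatal (25.9%). Over the whole course, adult against E12.5, 1 gene rose (25.7% of all features did) and 2 fell (25.1%), against 50.8% of all features called in either direction, so the 3 of 6 stand near the background. The median change of the 6 genes there was 0.06, against -0.04 over all features. In the pairs of stages that skip a step, 1 of 6 was called at E17.5 against E12.5 (17.0% of all features), 2 at neonatal against E12.5 (41.9%), 1 at neonatal against E14.5 (43.0%), 3 at adult against E14.5 (49.6%) and 2 at adult against E17.5 (35.4%). These 5 pairs were added after the values had been seen.

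**Figure D2:**
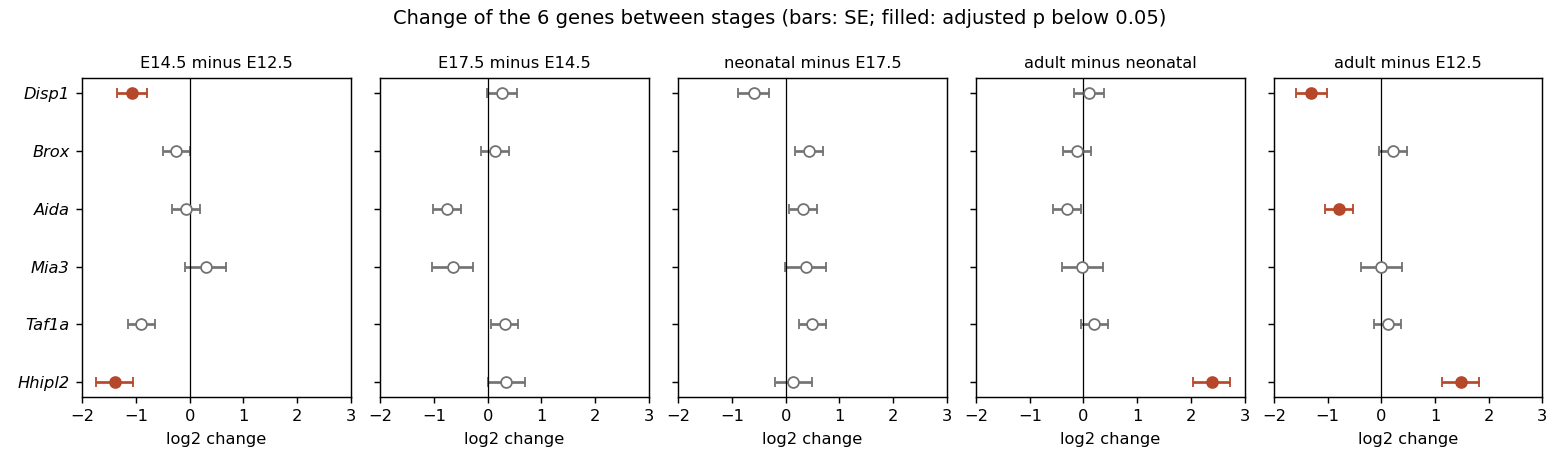
Log2 change (horizontal axes) of the 6 genes, listed in chromosome order, for 4 successive steps and for adult minus E12.5. Points are limma estimates, bars the SE, and filled points have an adjusted p below 0.05. No step has more than 2 filled points, and adult minus E12.5 has Hhipl2 to the right and Disp1 and Aida to the left of 0.

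Whether neighbours changed by unequal amounts was tested on the log2 ratio of their signals within an array, in which the scaling of the array cancels. Hhipl2 was left out because it was mostly below background, which left 10 pairs. The 6 postnatal arrays were set against the 9 fetal arrays by an exact two-sided permutation test over all splits of the arrays, with p adjusted over the 10 pairs. The test takes all arrays as exchangeable, although they group by stage and age nearly coincides with slide. Its p-values may therefore overstate the evidence for a difference between fetal and postnatal liver. Only the change of such a ratio is read here, not its level. In 4 of the 10 pairs the change passed (Disp1 over Taf1a, Disp1 over Brox, Brox over Aida, and Aida over Taf1a).

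The Disp1 over Taf1a ratio was -0.07, -0.15 and 0.13 at E12.5, then -0.30, -0.21 and -0.12 at E14.5 and -0.40, -0.33 and -0.06 at E17.5. Neonatal arrays gave -1.34, -1.54 and -1.17, and adult arrays -1.44, -1.46 and -1.47. The postnatal arrays (-1.54 to -1.17) and the fetal arrays (-0.40 to 0.13) did not overlap. The mean ratio was -1.40 ± 0.13 in postnatal liver (SD, n = 6) and -0.17 ± 0.16 in fetal liver (SD, n = 9), a difference of -1.23 (exact permutation p = 0.0004, the smallest this design can give in a two-sided test; adjusted p = 0.0020). E17.5 replicate 3, the only fetal array on the second slide, had -0.06 and lay with the fetal arrays, and within that slide the difference was -1.34. Across E12.5, E14.5 and E17.5 the stage means of the ratio were -0.03, -0.21 and -0.26, while those of the Disp1 level were 2.89, 1.82 and 2.08 and those of the Taf1a level 2.92, 2.03 and 2.34. The SD of the ratio was 0.14, 0.09, 0.18, 0.18 and 0.02 from E12.5 to adult. The SD of the Taf1a level was 0.25, 0.26, 0.32, 0.14 and 0.27 in the same order, so the ratio varied less than Taf1a at every stage but neonatal. The scaling of the array, which both levels share, cancels in any such ratio, so this is not read as joint change. Brox over Taf1a also varied less than Taf1a at E12.5, E17.5 and adult (SD 0.13, 0.16 and 0.11), but not at E14.5 or neonatal (0.36 and 0.20).

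The Disp1 over Brox ratio lay between -3.69 and -2.93 on the postnatal arrays and between -2.74 and -1.41 on the fetal arrays, again without overlap (difference -1.12, exact permutation p = 0.0004, adjusted p = 0.0020). E17.5 replicate 3 had -2.23, and within the second slide the difference was -0.95. Within gestation it was -2.74, -1.98 and -2.43 at E14.5, against -1.71, -1.55 and -1.41 at E12.5, a step that was not tested.

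For the divergent pair, the Brox over Aida ratio was 2.65, 2.56 and 2.36 at E12.5, then 2.34, 2.28 and 2.40 at E14.5 and 2.94, 3.61 and 3.15 at E17.5. Neonatal arrays gave 3.34, 3.51 and 3.16, and adult arrays 3.71, 3.18 and 3.71. All E17.5 and postnatal arrays were above all E12.5 and E14.5 arrays, on either slide. Postnatal against fetal arrays differed by 0.74 (exact permutation p = 0.00559, adjusted p = 0.014) and overlapped, because E17.5 replicate 2, at 3.61, lay among the postnatal ones. Within the second slide, whose only fetal array is E17.5 replicate 3, the difference was 0.28. The ratio of these genes, whose starts as used here are 51 bases apart, was 1.67-fold higher in postnatal than in fetal liver.

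**Figure D3:**
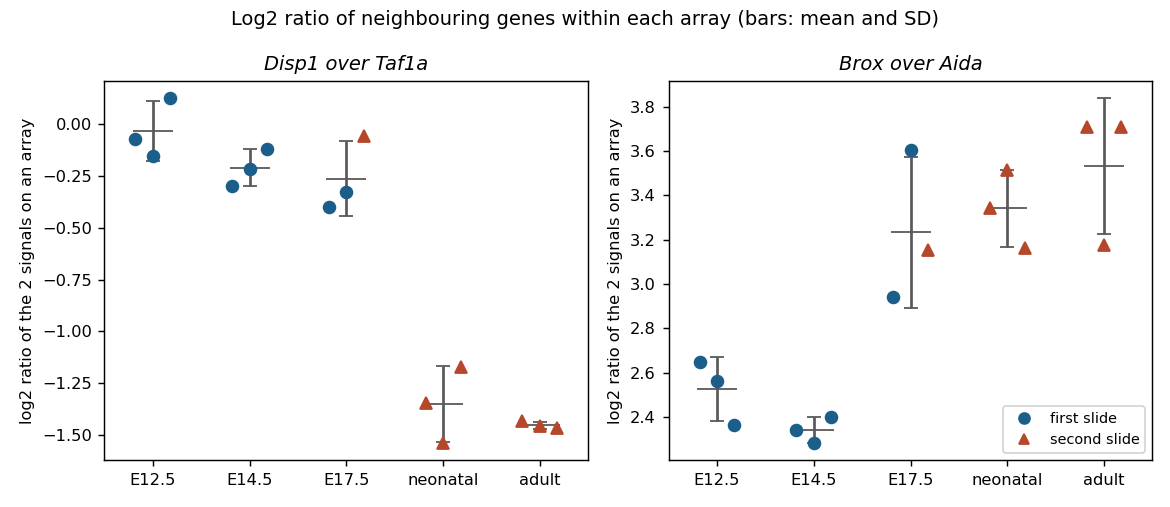
Log2 ratio of the signals of 2 genes on the same array (vertical axes) by stage. Circles are arrays of the first slide and triangles of the second, and the lines are the mean and SD of 3 arrays. Disp1 over Taf1a drops between E17.5 and neonatal, with the second-slide E17.5 array at the fetal level, and Brox over Aida is higher from E17.5 on.

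The Aida over Taf1a ratio was lower by 0.86 on the log2 scale in postnatal liver (-1.66 ± 0.38, n = 6) than in fetal liver (-0.80 ± 0.57, n = 9; SD; difference -0.86, exact permutation p = 0.0044, adjusted p = 0.014), with overlap, and the difference within the second slide was -0.68. Its stage means were -1.0, -0.17 and -1.24 at E12.5, E14.5 and E17.5, then -1.41 in neonatal and -1.91 in adult liver, so that E14.5 stood apart from the other fetal stages and E17.5 lay near neonatal. The other 6 pairs did not pass: Disp1 over Mia3 differed by -0.75 (adjusted p = 0.161), Disp1 over Aida by -0.38 (0.282), Mia3 over Taf1a by -0.48 (0.282), Brox over Mia3 by 0.36 (0.353), Aida over Mia3 by -0.37 (0.353) and Brox over Taf1a by -0.12 (0.485), all by exact permutation. The 3 adult and 3 E12.5 arrays cannot give an exact two-sided p below 0.1. There the differences were -1.42 for Disp1 over Taf1a, -1.52 for Disp1 over Brox and 1.01 for Brox over Aida, each at p = 0.1 by exact permutation.

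Likeness of profile was described by Pearson's r over the 15 arrays, which share stage, slide and scaling, with no test. Brox and Taf1a had the highest r in the block (0.74 over arrays and 0.83 over the 5 stage means), although 2 genes lie between them, and 3.33% of all tested features had an r with Taf1a at least as high. Taf1a and Hhipl2 followed with 0.69 and 0.79, where most Hhipl2 values are below background. Disp1 and Aida had 0.50 and 0.53, a value that 14% of all features reached with Disp1. The divergent pair Brox and Aida had 0.02 over arrays and -0.39 over stage means, and 46.1% of all features had an r with Brox as high. The other adjacent measured pairs, Disp1 with Brox, Aida with Mia3, and Mia3 with Taf1a, had -0.03, -0.08 and -0.15 over arrays and -0.41, 0.69 and -0.20 over stage means. Adjacent Aida and Mia3 thus had a high r over stage means but not over single arrays. That r rests on only 5 means. The lowest Mia3 mean, -2.17 at E17.5, includes replicate 3 at -3.19, where the probe was not well above background.

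**Figure D4:**
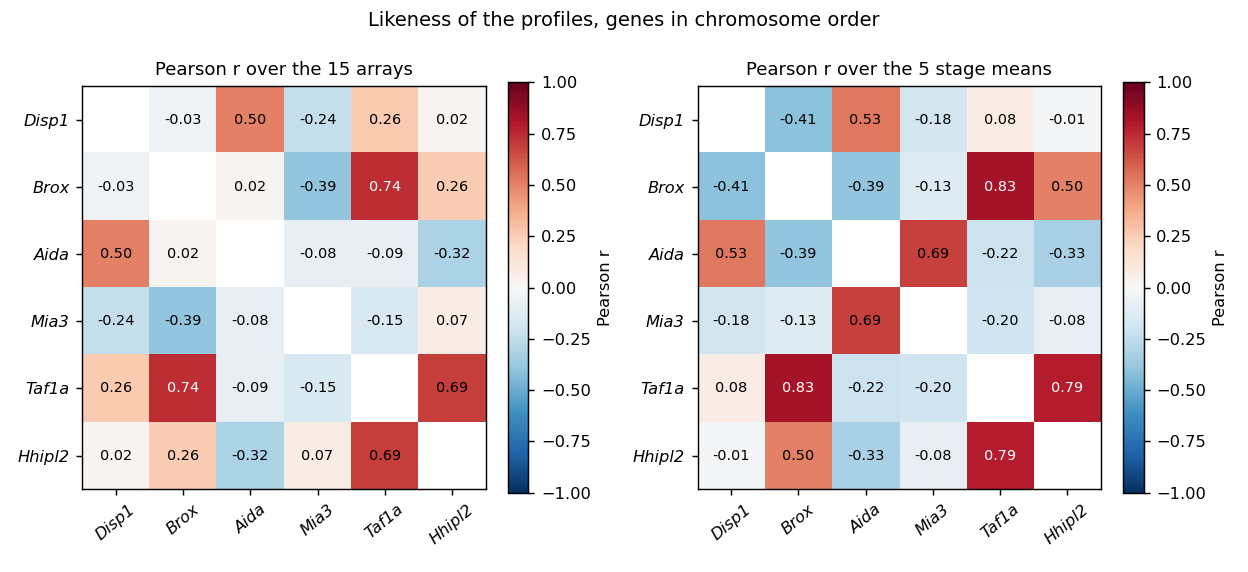
Pearson r between the profiles of the 6 genes, in chromosome order on both axes, over the 15 arrays (left) and the 5 stage means (right), with the colour scale from -1 to 1. The cells next to the diagonal are adjacent measured genes, and of these only Taf1a with Hhipl2 is above 0.5 over the arrays (0.69). Over the stage means it is joined by Aida with Mia3 (0.69), where the E17.5 mean of Mia3 includes an array not well above background.

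Outside the block, the 3 symbols most like each gene over the 15 arrays were Jrkl, Zfp131 and Tsnax for Disp1 (r = 0.87, 0.85 and 0.82). For Brox they were Gapdh, Tagap and Fam177a2 (0.86, 0.85 and 0.83), and for Taf1a Fam177a2, Gm13305 and Tagap (0.84, 0.84 and 0.80). For Aida they were Rpl13a, Gm4312 and Tbp (0.78, 0.77 and 0.73), and for Hhipl2 Gm13305, Gm6710 and Vamp7 (0.89, 0.84 and 0.74). Mia3 had no close match among the symbols, with Gm20823, Vmn1r259 and BC147527 at 0.61, 0.44 and 0.43. No member of the block was among the 3 symbols most like any other member, out of only 74 other tested symbols. The nearest were Taf1a for Hhipl2 (place 4) and Brox for Taf1a (place 6). Taf1a for Brox and Hhipl2 for Taf1a were each at place 8. The lists for export from the endoplasmic reticulum, for ESCRT and for axin and JNK signalling had no measured gene other than Mia3, Brox and Aida themselves.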

How the data were processed

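Liver RNA of 15 samples was hybridised to 1-colour Agilent arrays. Per the labels' protocols, total RNA was depleted of ribosomal RNA and amplified with random primers along whole transcripts. Per the file headers, Feature Extraction 11.0.1.1 made the deposited intensity values, on a linear scale, background-subtracted and not scaled between arrays; the submitters' processing notes name version 10.7.3.1. The authors' deposited table of log2 values (29158 probes, 5 of the 6 genes, without Hhipl2) served as an alternative; its normalization is not given in the sources used here.

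Control spots and spots marked as outliers were left out, spots of 1 probe were averaged, and levels were log2 processed signals relative to each array's 75th percentile over noncontrol probes. The 75th percentile ranged from 144.7 to 301.2, and the number of arrays limits the precision. Of 123 RefSeq accessions, 116 matched the RefSeq gene table (GRCm38.p6, names and order only, since the array's grid is on another build). limma 3.58.1 (R 4.3.3; lmFit, eBayes, two-sided, a mean per stage, no block) was fitted to 37357 features with Benjamini-Hochberg adjustment over them, and tested on simulated data. Ratios were tested by exact permutation (SciPy 1.17.1). Alternatives changed the scaling, background correction (normexp on median signals, offset 50), filter, slide block, replicate block and the arrays used. Named genes were the 6 members, the 3 symbols most like each, and measured genes of 5 pathway lists and the marker lists. The members, lists and tests were chosen with earlier results of these data known.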

Additional observations from a re-analysis of the deposited data

How the results depend on the processing

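Of 1603 alternative values for the 66 results on single genes, 1467 kept their side of the threshold, 99 lost a call, 36 gained one and 1 reversed; of 290 for the 20 ratio results, 286 kept it, 1 lost and 3 gained. In 62 and 4 of those that kept it the sign changed while neither value was called. Disp1 adult minus E12.5 was called in all 24 alternatives (-1.92 to -1.17), and the tests over 5 stages of Disp1 and Taf1a in all 23. Hhipl2 adult minus E12.5 was called in all 23 (0.67 to 2.04). That is a description only, since the filter admitted Hhipl2 through the adult arrays on which it was high. The Disp1 over Taf1a and Disp1 over Brox ratios passed in all 20 alternatives, among which leaving out E17.5 replicate 3 occurs under 2 names. Aida was less firm. Its adult minus E12.5 change ranged from -0.96 to -0.65 without 1 array (adjusted p 0.00632 to 0.0800) and was -0.65 (0.0617) without E12.5 replicate 1 and E17.5 replicate 1 together, a setting chosen after seeing the data. Its F over the 5 stages ranged from 3.55 to 8.19 without 1 array and lost its call without E12.5 replicate 3, E14.5 replicates 1 or 2, or adult replicates 1 or 3. That F was 3.97 (adjusted p = 0.0632) with no filter, where more features were tested, and 3.38 (0.0677) without both arrays named above. Slide as a block turned Mia3 adult minus E12.5 to 1.53 (0.0246) and its F to 4.5 (0.0460); the cause was not tested. For ratios, normexp brought Disp1 over Mia3 to -0.66 (exact permutation, adjusted p = 0.0248), and the authors' table Brox over Aida to 0.58 (0.0549). Brox over Mia3 reached 0.58 (0.0493) without E17.5 replicate 3 and ranged from 0.25 to 0.58 over the settings without 1 array. Same-numbered arrays of different stages showed little tendency to deviate together. Their 30 pairs had a median r of 0.01 (-0.24 to 0.48, 7 above 0.1). The 60 pairs of other numbers had a median r of -0.003 (-0.42 to 0.31, 9 above 0.1). Of the 15 arrays, 7 correlated best with their own number. The numbers were not taken as pairs, and a replicate block was fitted as an alternative. With a replicate block in limma, 5 of the 66 results on single genes changed, each by losing its call. Most of the 66 had no call to lose. The lost calls were E14.5 minus E12.5 for Disp1 (adjusted p = 0.0638) and Hhipl2 (0.0577), and E17.5 minus E12.5 for Aida (0.0567). Also lost were neonatal minus E12.5 for Hhipl2 (0.0665) and adult minus E17.5 for Taf1a (0.0601). A replicate block for the ratios, an exact permutation within replicate numbers added after seeing the data, changed no call: postnatal minus fetal had adjusted p = 0.01 for Disp1 over Taf1a (-1.23) and Disp1 over Brox (-1.12), 0.035 for Brox over Aida (0.74) and 0.0267 for Aida over Taf1a (-0.86). Signal over background limits Hhipl2 and, on 1 array, Mia3.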
